A study of Mus musculus with 4 samples.

Results

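The *Fos* locus of mouse chromosome 12 was examined for histone H3 phosphorylated on serine 10 (H3S10ph), mapped by chromatin immunoprecipitation and sequencing in gastrocnemius, the large calf muscle. Members were the peaks that overlap the genes *Fos*, *Batf* or *Jdp2*, or that lie within 100 kb of either end of *Fos*. They numbered 22 of the 93418 peaks of the 4 deposited lists. The locus was selected on the measured peaks themselves, since *Fos* was chosen for its rank in these same lists, so its values are given as a description and without a test. The stimulated muscles came from male C57BL/6 mice of 5 months, under xylazine and Zoletil, after 50 eccentric contractions at 100 Hz. Each tetanus lasted 600 ms while the foot was moved at 40 mm/s, contractions were 30 s apart, and the muscles were frozen immediately afterwards. The unstimulated muscles were labelled as the contralateral ones, and the study describes them as taken from the same anaesthetised mice. Each condition had 2 samples, and each sample pooled muscles of 6 mice, so the spread between samples is a spread between pools. The sciatic nerve was exposed surgically for the electrodes, and the common peroneal nerve was cut to keep the dorsal flexors out. Whether the contralateral side had a sham operation is not given in the sources used here.

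*Fos* encodes a leucine zipper protein that pairs with Jun proteins to form the transcription factor AP-1. It is the classic immediate early gene, almost silent at rest and transcribed within minutes of a stimulus. Serum response factor and its partners act through a CArG box in the *Fos* promoter, CREB acts through a cyclic AMP response element, and distal enhancers are known in other tissues. The kinases MSK1 and MSK2, downstream of MAP kinases such as p38, phosphorylate H3S10 at such genes. *Jdp2* encodes a leucine zipper protein that dimerises with Jun and represses AP-1 sites, and *Batf* encodes another Jun partner, best known in lymphocytes.

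The sequences below are those of the GRCm38 (mm10) reference, plus strand, 5′ to 3′. The first is shown because it carries the known control elements of *Fos* and lies outside every peak, the second because it was the only interval off the gene held by both stimulated lists, and the third because it had the highest fold enrichment of the stimulated peaks off the gene. Capitals mark matches to the searched motifs.
before the Fos start (chr12:85473575-85473874): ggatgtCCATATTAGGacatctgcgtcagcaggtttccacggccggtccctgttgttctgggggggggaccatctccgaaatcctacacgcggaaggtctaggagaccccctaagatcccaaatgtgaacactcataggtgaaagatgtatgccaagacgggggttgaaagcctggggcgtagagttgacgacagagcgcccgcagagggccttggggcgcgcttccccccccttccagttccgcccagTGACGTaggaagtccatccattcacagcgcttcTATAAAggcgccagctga
shared upstream interval (chr12:85453684-85453977): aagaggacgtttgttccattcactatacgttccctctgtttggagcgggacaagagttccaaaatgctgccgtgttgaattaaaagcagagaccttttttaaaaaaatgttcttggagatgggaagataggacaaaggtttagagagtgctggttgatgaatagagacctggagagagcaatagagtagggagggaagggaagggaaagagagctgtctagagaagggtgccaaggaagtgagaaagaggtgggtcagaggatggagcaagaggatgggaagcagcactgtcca
downstream peak (chr12:85548399-85548643): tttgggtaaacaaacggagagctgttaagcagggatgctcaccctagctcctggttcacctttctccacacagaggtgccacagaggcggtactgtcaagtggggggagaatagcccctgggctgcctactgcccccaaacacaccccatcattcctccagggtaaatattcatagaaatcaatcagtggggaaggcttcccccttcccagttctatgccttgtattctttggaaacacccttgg

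In the first, the capitals mark, in order, a CArG box, the cyclic AMP response element core TGACGT and a TATAAA box, which began 309, 66 and 33 bp before the annotated start. 5 motifs were searched on both strands: the CArG box, the MEF2 box, TGANTCA (the AP-1 site), TGACGT and TATAAA. The other sequences held no match to any of them. Windows of the same length before the starts of 21930 protein-coding genes held a CArG box in 1.64%, a MEF2 box in 0.565%, TGANTCA in 7.20%, TGACGT in 7.26% and TATAAA in 14.1%. A CArG box and TGACGT stood together in 20 of these windows, 0.0912%. The matching windows of *Jdp2* and *Batf* each held 1 TGACGT and no CArG box. In 23959 windows set at steps of 100 kb, whether or not near a gene start, the shares were 1.67% for the CArG box and 0.630% for the MEF2 box. They were 8.81% for TGANTCA, 2.24% for TGACGT and 26.9% for TATAAA, so the CArG box was about as common there as before gene starts. Among the 22 members, the stimulated peaks on *Fos* each held 1 TGANTCA, 1 TGACGT and 2 TATAAA. Of the rest, a stimulated peak 35.6 kb upstream held 1 TATAAA, the peak on *Jdp2* held 1 TGACGT, and no member held a CArG box or a MEF2 box.

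The lists differed in length, which bears on every count below. They held 9094 and 32740 peaks in unstimulated replicates 1 and 2, and 10901 and 40683 peaks in stimulated replicates 1 and 2. The lists give no read counts. The study states that replicates were reduced to equal read numbers, but the numbers themselves are not known here. In both conditions replicate 2 had over 3 times the peaks of replicate 1. Unstimulated replicate 1 stood apart, with 522 peaks on chromosome X against 16 to 19 in the other lists and no peak on chromosome Y against 6 to 7. All 4 samples carry the same labels of sex and strain, and that list thus differs from the others in a way its labels do not give. The cause was not tested, and the main differences are also given without it. Overlap between replicates was low, since 4.19% of the peaks of stimulated replicate 1 and 1.13% of those of stimulated replicate 2 touched one in the other stimulated sample. Of 8 muscle fibre genes, 1, 5, 5 and 4 held a peak in the lists in the order given above. The same counts were 0, 1, 1 and 1 of 3 satellite cell genes, 0, 1, 0 and 3 of 3 endothelial genes, 0, 2, 1 and 1 of 3 fibroblast genes, and 0, 1, 1 and 2 of 3 leukocyte genes. Of all protein-coding genes, 11.9%, 31.2%, 16% and 42.3% held a peak in the same lists. With so few genes per cell type, nothing about cell types is read from these counts. The part of cells other than fibres in the results was not tested.

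On the *Fos* gene, called H3S10ph peaks covered nearly the whole transcribed body in both stimulated samples and less or none of it in the unstimulated ones. A body without a called peak may still carry the mark. *Fos* runs from 85473890 to 85477273 on the plus strand, 3384 bp. Unstimulated replicate 1 had no peak on it, and unstimulated replicate 2 had 1 peak that covered 1437 bp, or 42.5% of the body. Stimulated replicate 1 covered 3262 bp, or 96.4%, and stimulated replicate 2 covered 3340 bp, or 98.7%. The conditions did not overlap, which also held, in this direction, for 4.97% of all protein-coding genes, *Fos* included. The mean was 718.5 ± 1016 bp (SD, n = 2) unstimulated and 3301 ± 55.2 bp (SD, n = 2) stimulated, a difference of 2582.5 bp. Without unstimulated replicate 1 the difference was 1864 bp. With 2 samples against 2, an exact permutation test could not go below a two-sided p of 0.333. In a pool of whole muscle, more nuclei with the mark and more mark per nucleus cannot be told apart.

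**Figure D1:**
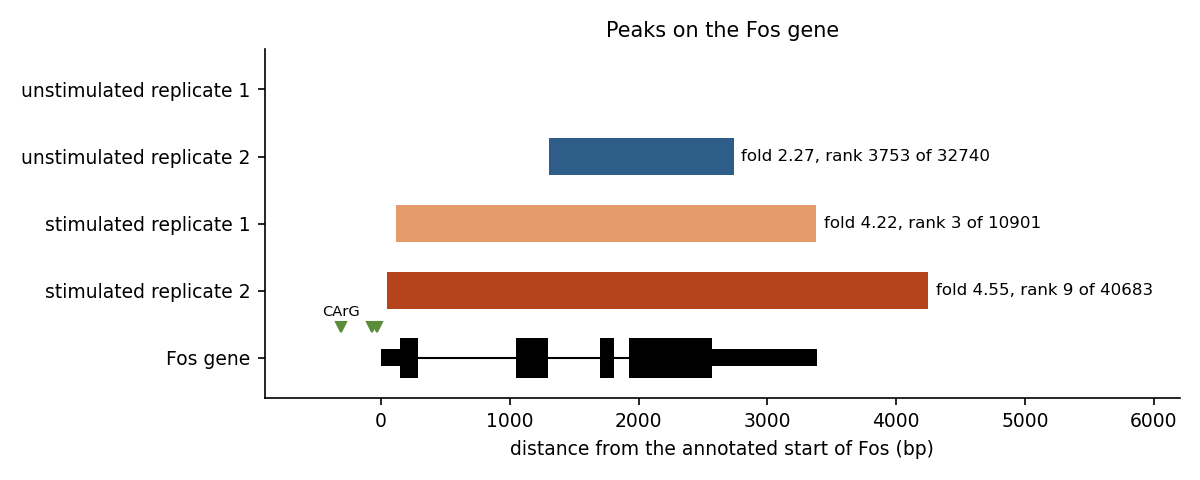
Bars show the peaks of each list on *Fos* against the distance from its annotated start in bp; the gene below has exons as blocks (coding parts taller), introns as lines and triangles for the CArG box, TGACGT and TATAAA matches. The stimulated bars start 116 and 44 bp after the gene start, the bar of unstimulated replicate 2 starts 1301 bp after it, and unstimulated replicate 1 has no bar.

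The peaks differed in shape as well as in length. In unstimulated replicate 2 the peak began 1301 bp after the gene start, past the end of exon 2, and stopped 646 bp before the gene end. It left exon 1, intron 1 and exon 2 without cover and took in exon 3 whole, 99.0% of intron 2 and 55.7% of exon 4, the last exon. The peak of stimulated replicate 1 began 116 bp after the gene start, 34 bp before the start codon, and ended 6 bp before the gene end. The peak of stimulated replicate 2 began 44 bp after the gene start, 106 bp before the start codon, and ran 865 bp past the gene end. The former lay wholly inside the latter. Their shared 3262 bp made up 77.6% of their union. Both covered 100% of the coding exons, against 65.6% in unstimulated replicate 2, and 99.3% and 100% of the 3′ UTR, against 20.7%. Of the 5′ UTR they covered 22.7% and 70.7%. The 1000 bp before the gene start were covered by no peak in any list, so the control elements printed above lay outside every peak.

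Within its own list the *Fos* peak stood near the top after stimulation. Fold enrichment, the signal over the background that the peak caller estimated, was 4.22 in stimulated replicate 1, rank 3 of 10901, and 4.55 in stimulated replicate 2, rank 9 of 40683. In unstimulated replicate 2 it was 2.27, rank 3753 of 32740. The widths of 3262 and 4205 bp ranked 20 and 16 in the stimulated lists, 9.06 and 9.20 times their median width, while the 1437 bp in unstimulated replicate 2 ranked 553. The −log10 p-values were 9.16 and 10.8 in the stimulated lists and 2.60 in unstimulated replicate 2. After the caller's correction the −log10 q-values were 4.67 and 6.41 in the former and 0 in the latter. These peaks of the stimulated lists were the only 2 members with a −log10 q above 0, against 1232 of all peaks (11.3%) in stimulated replicate 1 and 443 (1.09%) in stimulated replicate 2. Fold and p are relative to each list's own background, so across lists only the ranks can be compared, and the folds, p and q are given as each list's own values.

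**Figure D2:**
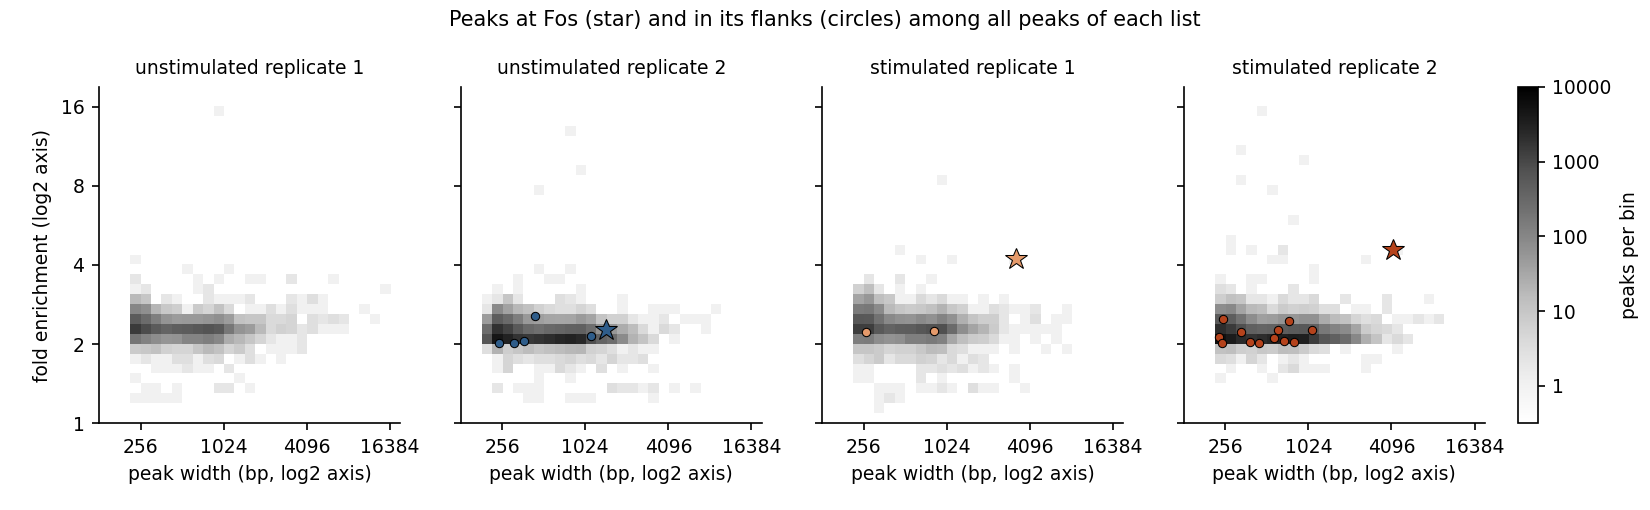
Each panel shows 1 list, with peak width in bp (log2 axis) against fold enrichment (log2 axis), grey cells for the number of peaks per bin, stars for peaks on *Fos* and circles for the other members. The stars of the stimulated lists, at 3262 bp and fold 4.22 and at 4205 bp and fold 4.55, lie apart from the bulk, while the star of unstimulated replicate 2, at fold 2.27, lies in it.

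Few peaks ranked above *Fos*, and all of them were narrower. In stimulated replicate 1 there were 2, both overlapping a peak of an unstimulated list and neither on a protein-coding gene. In stimulated replicate 2 there were 8. Of these, 5 overlapped peaks of both unstimulated lists and 3 overlapped none, and 2 lay on protein-coding genes, *Ano2*, which encodes a calcium-activated chloride channel, and *Ncoa1*, which encodes a nuclear receptor coactivator. These 2 genes are named after their values were seen.

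Among all 21938 protein-coding genes, a peak somewhere on the body was common. A peak on the body was held by 11.9% and 31.2% of genes in unstimulated replicates 1 and 2, and by 16% and 42.3% in stimulated replicates 1 and 2. Both stimulated lists held one on 12.3% of genes, *Fos* among them. More of the body was covered in both stimulated lists than in both unstimulated lists for 4.97% of genes, and of the 3 member genes *Fos* alone met this. At least 90% of the body was covered in both stimulated lists for 1 gene, *Fos*, which is 0.00456%. That limit was chosen with the values of *Fos* known, and nothing is read from it beyond the count. A covered share also depends on gene length, and no share among genes of like length is given. In stimulated replicate 1, 2 genes had a covered share at least as large as *Fos*, itself included, and in stimulated replicate 2 there were 5. At the 42.5% of unstimulated replicate 2 there were 17.

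The gene bodies whose covered shares across the 4 lists lay nearest to those of *Fos* belonged to 10 genes of 1143 to 22418 bp. Nearness was the Euclidean distance between the 4 percentages. *Tcap*, which encodes the Z-disc protein telethonin, was nearest at 20.6 percentage points, with 0%, 57.7%, 84.3% and 91.9% of its body covered in unstimulated replicates 1 and 2 and stimulated replicates 1 and 2. *Gadd45g*, a stress-induced growth arrest gene, followed at 46.5 points with 0%, 0%, 94.8% and 79.7%. *Egr1*, an immediate early zinc finger gene, lay at 49.1 points with 0%, 6.10%, 77.4% and 71.7%. The AP-1 genes *Jun* and *Jund* lay at 50.3 and 55.5 points, and their peaks are given with that family below. The remaining ones included *Xirp1* (63.3), an actin-binding Xin repeat gene, *Acta1* (74.3), skeletal muscle actin, *Myh4* (74.5), a fast myosin heavy chain, and *Ier2* (75.4), an immediate early gene. *Acta1* had its largest share, 90.01%, in unstimulated replicate 2, so nearness by this measure does not mean the same order of the lists.

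Around the gene, from 100 kb before its start to 100 kb past its end, the lists held 0 and 6 peaks in unstimulated replicates 1 and 2, and 3 and 12 in stimulated replicates 1 and 2. At each list's mean density over the autosomes this length would hold 0.706, 2.70, 0.895 and 3.36 peaks. The covered length was 0, 3935, 4354 and 10152 bp in the same order. The stimulated values lay above the unstimulated ones, with means of 7253 ± 4100 bp and 1967.5 ± 2782 bp (SD, n = 2 each), but the lower stimulated and the higher unstimulated value differed by less than either SD. The difference of 5285.5 bp became 3318 bp without unstimulated replicate 1. Windows built likewise around all protein-coding genes were covered to more bp in both stimulated lists than in both unstimulated lists for 12.8% of genes. The cover was 1.93%, 2.14% and 4.99% of the window in the 3 lists with peaks, which was 2.77, 9.38 and 5.31 times the autosomal cover of the same list. Of all gene windows, 6.75% in unstimulated replicate 2, 0.725% in stimulated replicate 1 and 1.65% in stimulated replicate 2 were covered to at least the length around *Fos*. These ratios and shares include the *Fos* peaks, for whose rank the locus was chosen, so they are a description only. The *Fos* body made up 3262 of the 4354 bp in stimulated replicate 1 and 3340 of the 10152 bp in stimulated replicate 2.

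**Figure D3:**
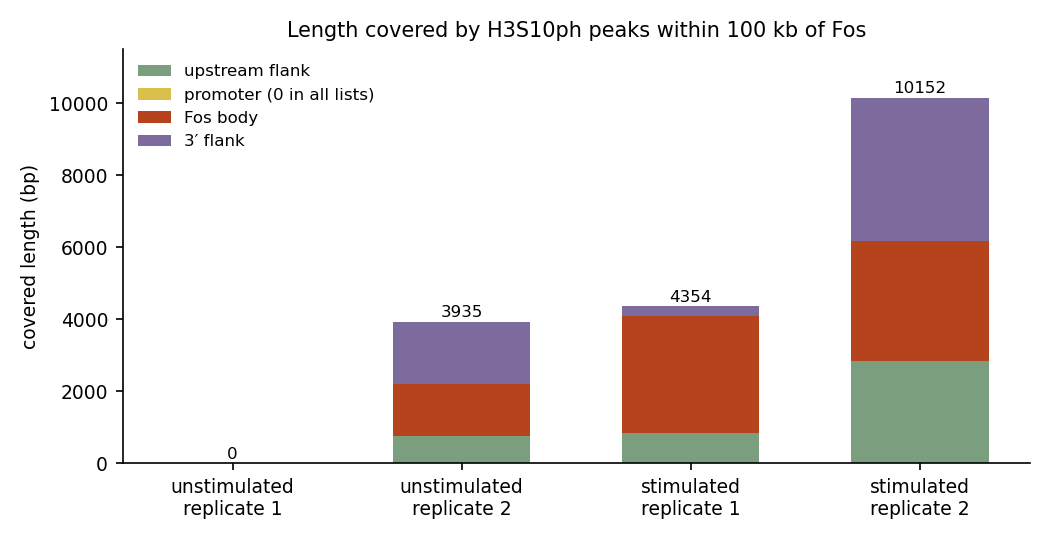
Stacked bars give the length in bp covered by peaks within 100 kb of *Fos* in each list, split into upstream flank, promoter (the 1000 bp before the start), *Fos* body and 3′ flank. Totals were 0, 3935, 4354 and 10152 bp, and the *Fos* body made up most of the total in stimulated replicate 1.

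With the gene left out, whether the conditions separated depended on the scale. The flanks without *Fos* and 5 kb on either side of it were covered over 0, 2498, 1092 and 5559 bp, so in bp unstimulated replicate 2 exceeded stimulated replicate 1. Relative to the autosomal cover of each list this was 0 and 1.88 times in the unstimulated lists and 2.52 and 3.11 times in the stimulated lists, which did not overlap. The upstream flank was covered over 0 and 756 bp unstimulated and 826 and 2844 bp stimulated, which did not overlap. The 3′ flank was covered over 0 and 1742 bp unstimulated and 266 and 3968 bp stimulated, which overlapped. The share of all genes whose flanks separate likewise was not computed. Nothing particular to the locus is therefore read from these splits.

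Off the *Fos* body there were 19 members. They were 230 to 1126 bp wide (median 444), with a fold of 2.01 to 2.55 (median 2.13). The median widths of all peaks were 380, 418, 360 and 457 bp and their median folds 2.2496, 2.09, 2.27 and 2.09, in the order of the lists above. A −log10 p of 3 equals the p of 0.001 stated in the study's methods, but all 4 lists go down to about 2. It thus does not show which peaks met the study's own cutoff. Of the 19 members, 3 reached it. That was 1 of 5 in unstimulated replicate 2, 0 of 2 in stimulated replicate 1 and 2 of 12 in stimulated replicate 2. Of all peaks, 12.9% and 2.93% in unstimulated replicates 1 and 2 and 17.7% and 3.22% in stimulated replicates 1 and 2 reached it. One lay 73.5 kb upstream in unstimulated replicate 2, with a fold of 2.55 and rank 312. The others lay 50.1 and 74.6 kb downstream in stimulated replicate 2, with folds of 2.45 and 2.501 and ranks 1079 and 731, the latter being the downstream peak printed above. No annotated gene was present at 16 of the 19, and the other 3 lay on *Jdp2* or on the lincRNA *Gm32296*.

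In unstimulated replicate 2 the flank members were centred 73.5 and 21.97 kb before the *Fos* start and 16.9, 55.7 and 85.7 kb after it. In stimulated replicate 1 they were centred 20.3 kb before and 94.3 kb after it. In stimulated replicate 2 they were centred 46.0, 35.6, 20.0, 11.7 and 2.68 kb before the start and 9.31, 23.4, 50.1, 57.8, 74.6 and 86.6 kb after it. The peak nearest to the promoter was the one of stimulated replicate 2 that ended 2486 bp before the gene start, 388 bp wide, with a fold of 2.04 and rank 27638. Unstimulated replicate 1 had its nearest peaks 194.6 kb upstream and 474.1 kb downstream.

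**Figure D4:**
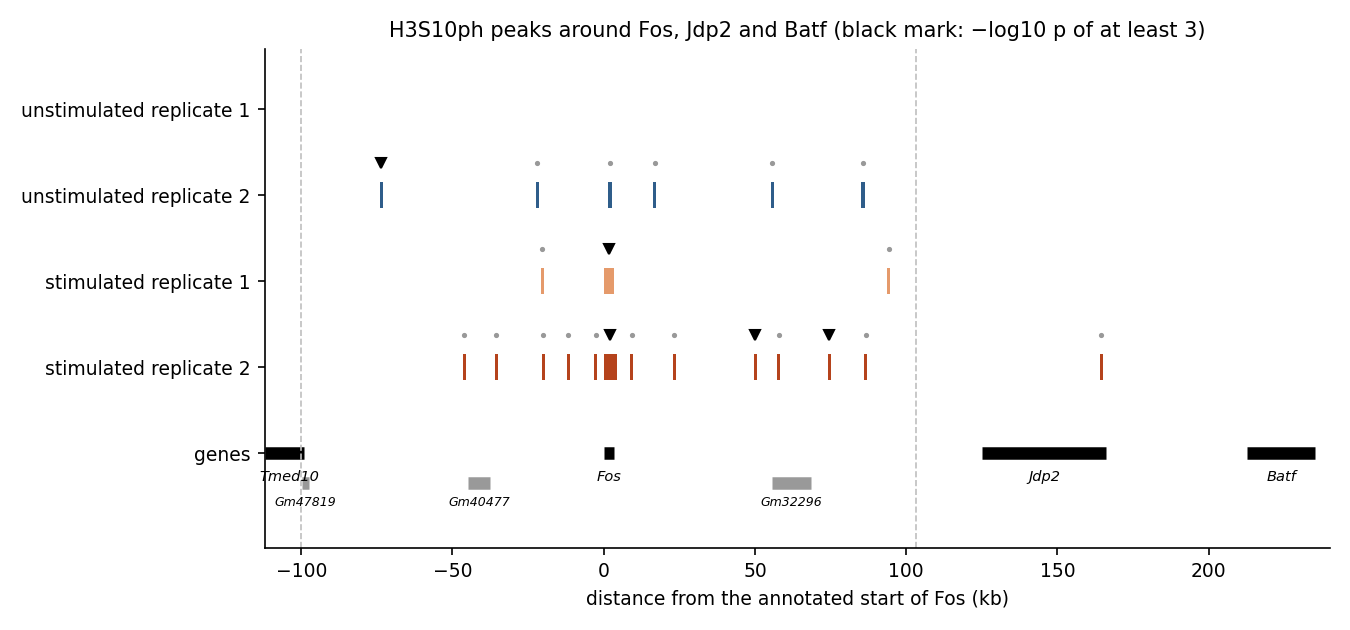
Peaks of the 4 lists and GENCODE genes (protein-coding in black, other genes in grey) are drawn against the distance from the annotated *Fos* start in kb; dashed lines mark 100 kb from either end of *Fos*, peaks narrower than 1 kb are drawn 1 kb wide, black triangles mark a −log10 p of at least 3 and grey dots the other members. The lists have 0, 6, 3 and 13 members, the widest lie on *Fos*, and *Batf* has none.

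Merged over the lists, the members formed 19 regions, of which 17 were held by 1 list, 1 by 2 lists and 1 by 3 lists. The region of 3 lists was the *Fos* body. The region of 2 lists lay about 20 kb upstream of *Fos*, in no annotated gene, and was the only one held by both stimulated lists and by no unstimulated list. Stimulated replicate 1 had a peak of 826 bp there, with a fold of 2.2502, rank 6082 and a −log10 p of 2.56. Stimulated replicate 2 had one of 332 bp, with a fold of 2.23, rank 6721 and a −log10 p of 2.56. They shared 294 bp, from 20206 to 19913 bp before the gene start, which is the interval printed above. It had a GC content of 46.6%, and 27.9% of it was annotated repeat. The ranks stood at 55.8% and 16.5% of the lengths of their lists, counted from the top. The nearest peak of unstimulated replicate 2 lay 1074 bp away. Another pair, from unstimulated replicate 2 and stimulated replicate 2 and about 86 kb downstream, was 197 bp apart and did not overlap. In all, 2 of 3 members in stimulated replicate 1 and 2 of 13 in stimulated replicate 2 overlapped a peak of the other stimulated list, against 4.19% and 1.13% of all their peaks. In each list 1 of them was the *Fos* peak, for whose rank the locus was chosen, and the other was this upstream peak. The counts are thus not read as a higher overlap at the locus. In unstimulated replicate 2, 0 of 6 members overlapped a peak of the other unstimulated list, against 0.993% of its peaks, so that count says nothing particular about the locus.

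Few peaks were called on the neighbouring AP-1 relatives. *Jdp2* starts 121.8 kb past the end of *Fos* and is 40852 bp long. It held 1 peak, in stimulated replicate 2, of 452 bp or 1.11% of the gene, with a fold of 2.01 and rank 31585 of 40683. The other 3 lists had none on it, and 42.3% of all genes had a peak in that same list. *Batf* starts 209.4 kb past the end of *Fos*, is 22419 bp long and held no peak in any list. The peaks nearest to its start lay 264.7 and 25.8 kb away in unstimulated replicates 1 and 2 and 118.4 and 17.9 kb away in stimulated replicates 1 and 2. For the start of *Jdp2* the distances were 319.7, 7.10, 30.7 and 15.8 kb. No peak in a list means that none was called there, not that the mark was absent.

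Other genes overlapped the window around *Fos*. *Tmed10*, a protein-coding gene of vesicle transport that reaches in at the upstream edge, held 1 peak of 257 bp in stimulated replicate 2, which lay outside the window. The antisense gene *Gm47819* and the lincRNA *Gm40477* held none. *Gm32296* was covered over 99 bp in unstimulated replicate 2 and 677 bp in stimulated replicate 2. At the edges, the outermost members within 100 kb lay 73.3 and 81.8 kb from *Fos* in unstimulated replicate 2, 19.9 and 90.8 kb in stimulated replicate 1 and 45.6 and 83.1 kb in stimulated replicate 2, upstream and downstream. The first peaks left out lay 194.6 and 474.1 kb away in unstimulated replicate 1, 323.0 and 113.7 kb in unstimulated replicate 2, 409.8 and 794.7 kb in stimulated replicate 1, and 109.7 and 105.6 kb in stimulated replicate 2.

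Among 12 genes of the AP-1 family, *Fos* had the best-ranked peak in each stimulated list. The family had a peak on 0 and 3 genes in unstimulated replicates 1 and 2 and on 4 and 8 genes in stimulated replicates 1 and 2, against 11.9%, 31.2%, 16% and 42.3% of all genes. Both stimulated lists held a peak on *Fos*, *Jun* and *Jund*, 3 of 12 against 12.3% of all genes. For *Jun* and *Jund* no unstimulated list did, 2 of 12 against 2.73% of all genes. *Fos* was chosen for its rank in these same lists, so its place in the family was fixed in part beforehand. The family list was also written with earlier results known, and these counts are a description only. *Jun* encodes the main partner of Fos. Its peaks had a fold of 2.38 (rank 2524) in stimulated replicate 1 and 3.06 (rank 33) in stimulated replicate 2. They covered 69.6% and 94.8% of the gene. *Jund*, a Jun paralogue that is expressed more steadily, had folds of 2.46 (rank 1558) and 3.07 (rank 32) and a cover of 66.01% and 79.9%.

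The other members of the family were thinly covered or not at all. *Junb* was covered over 30.4% in stimulated replicate 1 only. Stimulated replicate 2 alone held peaks on *Fosb* (11.8%), *Fosl1* (2.61%), *Batf2* (3.61%) and *Jdp2* (1.11%). *Fosl2* was covered over 2.95% in unstimulated replicate 2 and 4.57% in stimulated replicate 2, and *Atf3* over 0.823% in unstimulated replicate 2 alone. *Batf* and *Batf3* had no peak in any list. The cover of *Fos* thus exceeded that of its relatives in all 3 lists in which it had a peak, as a description of these libraries.

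**Figure D5:**
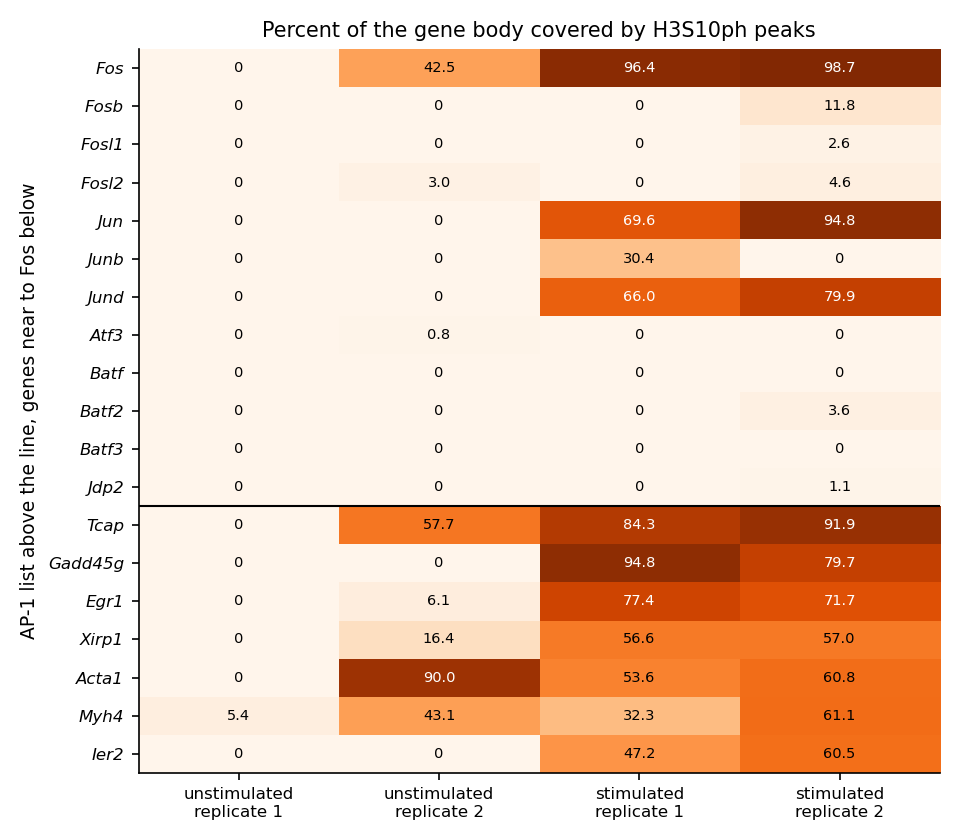
Numbers and shading give the percent of each gene body covered by peaks in the 4 lists, for 12 AP-1 genes above the line and, below it, genes outside the family among those with covered shares nearest to *Fos*. *Fos* reads 0, 42.5, 96.4 and 98.7, and *Batf* and *Batf3* read 0 throughout.

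Genes known to act on *Fos* had peaks on small parts of their bodies. Of 16 such genes, 5 and 7 held a peak in unstimulated replicates 1 and 2 and 7 and 12 in stimulated replicates 1 and 2, against 11.9%, 31.2%, 16% and 42.3% of all genes. Both stimulated lists held a peak on 7 of 16, against 12.3% of all genes, and each also had a peak in an unstimulated list. Among them were the MRTF coactivator genes *Mrtfa* and *Mrtfb*, the MSK1 gene *Rps6ka5*, the kinase gene *Map2k6* and the acetyltransferase genes *Crebbp* and *Ep300*. The covered shares of these genes in the stimulated lists ran from 0.173% to 3.89%, both in *Mrtfb*. A peak in stimulated replicate 2 and in no unstimulated list was held by 4, *Srf* (12.6%), the serum response factor gene, *Elk3* (2.72%), *Creb1* (2.34%) and *Map2k3* (3.43%). No list held a peak on 4 of the 16. The shares of all genes that meet these 2 conditions were not computed, and stimulated replicate 2 held a peak on 42.3% of all genes. No gain at genes that act on *Fos* is therefore read from these counts. These genes are long, with a median of 63897 bp, against 3384 bp for *Fos*.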

How the data were processed

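H3S10ph was measured by ChIP-seq in 4 samples, 2 per condition. The authors mapped reads to mm10, removed reads mapping to several places, reduced the replicates to equal read numbers and called broad peaks per sample against input DNA with MACS2 2.1.1. A deposited peak carries its fold enrichment (a ratio over background), its −log10 p-value and its −log10 q-value. Their 1 score column was left out. The methods state a p cutoff of 0.001, but the lists reach a −log10 p of about 2, so the cutoff was an alternative.

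Members, gene lists and limits were chosen with earlier results of these data known. Genes followed GENCODE M21 on mm10; overlap was at least 1 bp and ranks were within a list. *Mrtfa* and *Mrtfb* were matched by their older symbols. The genes named were the members, genes in the window, AP-1 and *Fos* control genes with a peak in both stimulated lists or in a stimulated list alone, and the 10 nearest by covered share; some of these are not reported here. Motif windows ran from 315 to 16 bp before starts. Values are means ± SD with no test. Replicate numbers are shared across conditions, but no source says that equal numbers mark the same mice. The covered-length and merging steps were tested on simulated data, and the rank and peak overlap steps were not. Python 3.11.15, numpy 2.4.6, matplotlib 3.10.9 and samtools 1.23.1 were used.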

Additional observations from a re-analysis of the deposited data

How the results depend on the processing

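Of 40 alternative values, 31 moved by less than the spread between replicates or stayed within 1.5 times a count, 9 moved by that much or more and 0 reversed. For covered lengths, leaving out 1 of 2 lists could not move a difference by more than this spread. The replicate block could not move it at all. These outcomes were fixed in advance, so the tally does not measure robustness. The difference in cover of the *Fos* body, 2582.5 bp, ran from 1864 to 3301 bp when 1 list was left out, and the value without unstimulated replicate 1, the list that stood apart, was 1864 bp. With only peaks of −log10 p of at least 3 it was 3301 bp, because the peak of unstimulated replicate 2 dropped out. The difference over the window, 5285.5 bp, ran from 2386.5 bp without stimulated replicate 2 to 8184.5 bp without stimulated replicate 1, and was 3318 bp without unstimulated replicate 1. With flanks of 200 kb it was 5560 bp, but unstimulated replicate 2 (4905 bp) then exceeded stimulated replicate 1 (4354 bp). For *Jdp2* the difference, 226 bp, ran from 0 to 452 bp, and it was 0 with the p cutoff or with the same number of top peaks from each list. *Batf* extended by 5 kb gave -320.5 bp in place of 0, from 1 peak of unstimulated replicate 2. The *Fos* peak of stimulated replicate 1 ranked 7 by p and 3 by fold. The count of regions held by both stimulated lists and no unstimulated list, 1, became 2 without unstimulated replicate 2, 12 without stimulated replicate 1 and 2 without stimulated replicate 2, so leaving out a list gave 1 to 12. At the p cutoff it stayed at 1, but that region was then the *Fos* body, since the upstream peaks had a −log10 p of 2.56. With the replicate block, as mean differences within equal replicate numbers, the values were again 2582.5, 5285.5 and 226 bp, by construction; within numbers 1 and 2 they were 3262 and 1903 bp for *Fos* and 4354 and 6217 bp for the window. The read numbers to which the study reduced the replicates are not known here, and 2 pools per condition limit every comparison.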

Other observations

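The *Fos* body had a GC content of 53.1% and an observed over expected CpG ratio of 0.523, against 50.4% and 0.255 for *Jdp2* and 47.6% and 0.267 for *Batf*. All peaks of the 4 lists had median CpG ratios of 0.130, 0.148, 0.148 and 0.168 and median GC contents of 37.99%, 43.9%, 44.5% and 44.5%. The members off the *Fos* body had median CpG ratios of 0.253, 0.270 and 0.263 and median GC contents of 49.9% (n = 5) in unstimulated replicate 2, 45.9% (n = 2) in stimulated replicate 1 and 48.2% (n = 12) in stimulated replicate 2. The part of base composition in the peaks was not tested.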
